A study of Mus musculus with 14 samples.

Results

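The expression response to ionizing radiation (IR) at 120 min was examined in mouse lymph node lacking Atm. The comparison set the 2 arrays titled as Atm-/- (KO) at 120 min after IR, replicates A and B, against the 3 arrays of untreated KO, replicates A, B and C, which makes 5 of the 14 arrays of the study. Of 12422 probe sets that are not array controls, 8938 lay above their own array's 40th percentile on at least 2 arrays and were tested. The study holds the same 3 conditions, untreated (3 arrays) and 30 or 120 min after IR (2 arrays each), for Atm+/+ (WT) and KO. The change in Atm is the only one the labels name for either genotype, and IR is the only treatment. The labels and files used here give no radiation dose, age, strain, targeted part of Atm or pooling of animals. They also do not say that replicates are separate animals, so each p-value reflects spread between these samples alone, which may be technical.

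Atm is a protein kinase that is switched on at DNA double-strand breaks. It phosphorylates p53 and the ubiquitin ligase that keeps p53 low, and p53 then turns on genes for cell cycle arrest and cell death. Atm also carries a signal from the nucleus to the kinase complex that degrades the inhibitor IkB-alpha, which frees NF-kB to turn on genes of inflammation and survival. Related kinases respond to DNA damage too.

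Values are given as deposited array intensities, and changes as differences of normalised log2(intensity + 32) ± standard error, a scale that understates changes of dim probe sets. The spread was estimated by limma over all 14 arrays, adjusted p-values cover all 8938 probe sets, and a change counts as called at an adjusted p under 0.05. Intensities of different probe sets are not compared. Median intensities of the 5 arrays lay between 69.7 and 72.6, the Gapdh 3' to 5' ratio was 0.867 to 0.976 on the untreated KO arrays and 0.857 and 0.777 at 120 min, and precision is limited by having few arrays. The tissue label was checked against markers. All 20 tested B cell markers had a summed intensity of 5846 to 7489 on the 5 arrays. The 19 T cell markers summed to 1569 to 1824, so lymphocyte transcripts were present. Salivary gland transcripts were present as well, and the 13 tested genes summed to 78882 to 125125. In a bulk sample, fewer cells of a type and less RNA per cell cannot be told apart.

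The Atm probe set gave intensities of 44, 7.5 and 24 on the untreated KO arrays and 37.3 and 13 at 120 min. It was low and overlapping in both groups, with a difference of 0.03 ± 0.36. The position of the probes against the altered part of Atm is not stated, so the genotype label cannot be checked by it.

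The promoter windows of Cxcl1, Nfkbia and Tnfaip3 introduce the 9 genes whose 120 min response differed between the genotypes, of which 6 are in the list of NF-kB targets. That list holds 32 of the 6541 tested genes and was written with earlier results of these data known. Of the 9 genes, 7 had windows in the table used, and Cxcl1, Nfkbia and Tnfaip3 had one with the NF-kB consensus. Each window, 250 bases before to 50 bases after the annotated start, was searched for the consensus of 10 bases on either strand, and capitals mark the matches. In Cxcl1 2 matches, 1 on each strand, overlap. The windows are from RefSeq on GRCm38.p6 and read 5′ to 3′ along the gene.

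Cxcl1 (chr5:90890995-90891294, plus strand): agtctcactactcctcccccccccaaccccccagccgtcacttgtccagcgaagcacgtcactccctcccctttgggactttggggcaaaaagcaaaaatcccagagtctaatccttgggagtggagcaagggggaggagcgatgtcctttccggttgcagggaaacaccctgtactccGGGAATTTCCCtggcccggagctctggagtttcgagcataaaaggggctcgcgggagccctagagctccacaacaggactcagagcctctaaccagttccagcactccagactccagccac
Nfkbia (chr12:55492598-55492897, minus strand): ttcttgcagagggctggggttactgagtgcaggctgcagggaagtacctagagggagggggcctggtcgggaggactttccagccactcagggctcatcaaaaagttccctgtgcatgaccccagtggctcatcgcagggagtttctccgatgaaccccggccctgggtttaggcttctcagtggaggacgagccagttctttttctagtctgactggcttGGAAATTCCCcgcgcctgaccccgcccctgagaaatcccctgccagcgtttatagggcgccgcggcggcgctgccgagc
Tnfaip3 (chr10:19015361-19015660, minus strand): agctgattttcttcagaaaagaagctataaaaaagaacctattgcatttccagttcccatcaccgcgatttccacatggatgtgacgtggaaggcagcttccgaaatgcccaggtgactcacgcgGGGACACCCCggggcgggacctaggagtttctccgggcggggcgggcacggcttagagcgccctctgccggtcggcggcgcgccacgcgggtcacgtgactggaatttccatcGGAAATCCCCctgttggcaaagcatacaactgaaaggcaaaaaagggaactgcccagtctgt

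Of the 37 single genes called higher in WT at 120 min, 28 had a window and 10 of these held the consensus. It was found in 3 of 7 genes with a called difference between genotypes and in 7 of 21 without one. Over all 32851 RefSeq windows, 4.51% held it, and 6.32% of the 5238 tested genes with a window did so. A match is a description of letters and not a binding site.

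No probe set passed in KO at 120 min. Called higher were 0 of 8938 (0%), and called lower were 0 (0%). At an unadjusted p under 0.05 by limma 320 were higher (3.58%) and 325 lower (3.64%), in all 645 against 446.9 from chance. Counts at this threshold in the gene lists below are to be read beside these shares. The median absolute change was 0.181, against 0.190 in WT at 120 min. With only 2 arrays against 3, an exact two-sided permutation test of 1 value cannot go below p = 0.2, and on deposited intensities both KO arrays at 120 min lay above all untreated KO arrays for 13.2% of probe sets and below all for 13.8%. Array KO 120 min B decided part of this count. Without it, 10 probe sets were called higher, among them the neutrophil calgranulin S100a8 at 1.97, the secretory protease inhibitor Slpi at 2.42 and the immunoglobulin light chain gene Igkv1-133 at 1.66. A probe set of C1qtnf1, of the kind that reads several family members, was called lower at -1.28. S100a8 stood at 67.8, 95.6 and 54.1 on the untreated arrays and at 363.1 on KO 120 min A but 80.1 on KO 120 min B. Without KO untreated B, the muscle genes Mb (-2.38) and Myh1 (-2.96) were called lower.

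The WT response served as the reference, on arrays that the KO comparison does not share. In WT at 120 min 42 probe sets rose (0.47% of those tested) and 4 fell (0.0448%). The 42 were chosen by their WT change, while the spread, the normalisation and the filter behind the choice also used the KO arrays. Over the 42, the median change was 1.58 in WT and 0.09 in KO, where 26 lay above 0 and 16 below. The KO median stayed between 0.04 and 0.18 under the alternatives run. An unadjusted p under 0.05 was reached in KO by 4 of the 42 upward and 3 downward, against 3.58% and 3.64% of all probe sets. Both KO arrays at 120 min lay above all untreated KO arrays for 10 of the 42 and below all for 6, against 13.2% and 13.8% of all probe sets. All 4 probe sets that fell in WT lay below 0 in KO, with a median of -0.20 against -1.02 in WT, and Cd22, an inhibitory receptor of B cells, had the lowest KO value (-0.44 ± 0.23). It stood at 80.8, 47.6 and 89.5 without treatment and at 43.4 and 43.8 at 120 min.

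**Figure D1:**
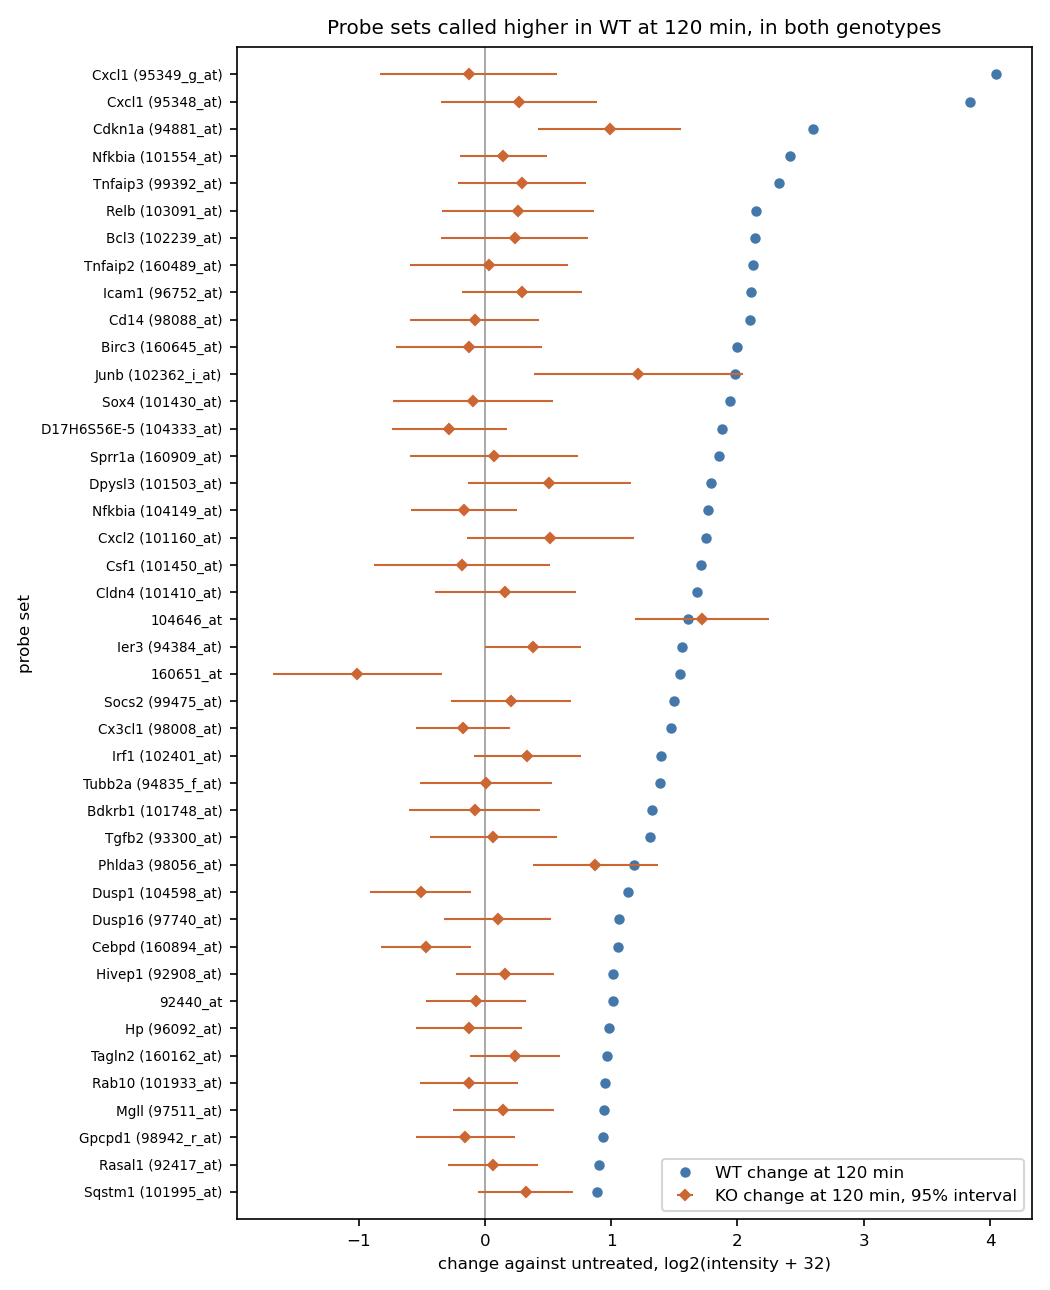
Change at 120 min against untreated on the log2(intensity + 32) scale for the 42 probe sets that rose in WT, ordered by the WT change; blue circles are WT and orange diamonds are KO with the 95% interval of the fit. Most KO intervals include 0, while those of 104646_at, Junb, Cdkn1a and Phlda3 lie above it and those of Dusp1, Cebpd and 160651_at below it.

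The responses themselves differed between the genotypes for 12 probe sets (0.134%), all smaller in KO, and 0 were larger; 625 had an unadjusted p under 0.05. All 12 were among the 42 that rose in WT. Nfkbia encodes IkB-alpha and is an NF-kB target that feeds back on the pathway. Its probe set 101554_at stood at 574.1, 579.5 and 542.3 on the untreated KO arrays and at 606.7 and 647.2 at 120 min, against 3247.3 and 2735.8 on the WT arrays at 120 min. The KO arrays at 120 min lay just above the untreated ones, with a change of 0.15 ± 0.16 (95% interval -0.20 to 0.49), and the KO minus WT difference of responses was -2.27 ± 0.22 (adjusted p = 0.00179). Its other probe set gave -0.16 in KO and a difference of -1.93 (adjusted p = 0.0194). The neutrophil-attracting chemokine Cxcl1 stood at 56.9, 47.7 and 16.2 without treatment in KO and at 48.7 and 54.0 at 120 min by one probe set, with the groups overlapping. That set changed by 0.27 ± 0.29 in KO against 3.84 in WT, a difference of -3.57 ± 0.40 (adjusted p = 0.00283). The other gave -0.13 ± 0.32 in KO and a difference of -4.17 (adjusted p = 0.00283). Tnfaip3 encodes the ubiquitin-editing enzyme A20, which ends NF-kB signalling. It was dim in KO, at 4.1, 3.0 and 5.3 without treatment and 18.1 and 7.2 at 120 min, against 210.7 and 220.2 in WT at 120 min. The KO values were higher on both arrays but close to the array floor (0.29 ± 0.23), and the difference was -2.04 ± 0.33 (adjusted p = 0.0348).

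**Figure D2:**
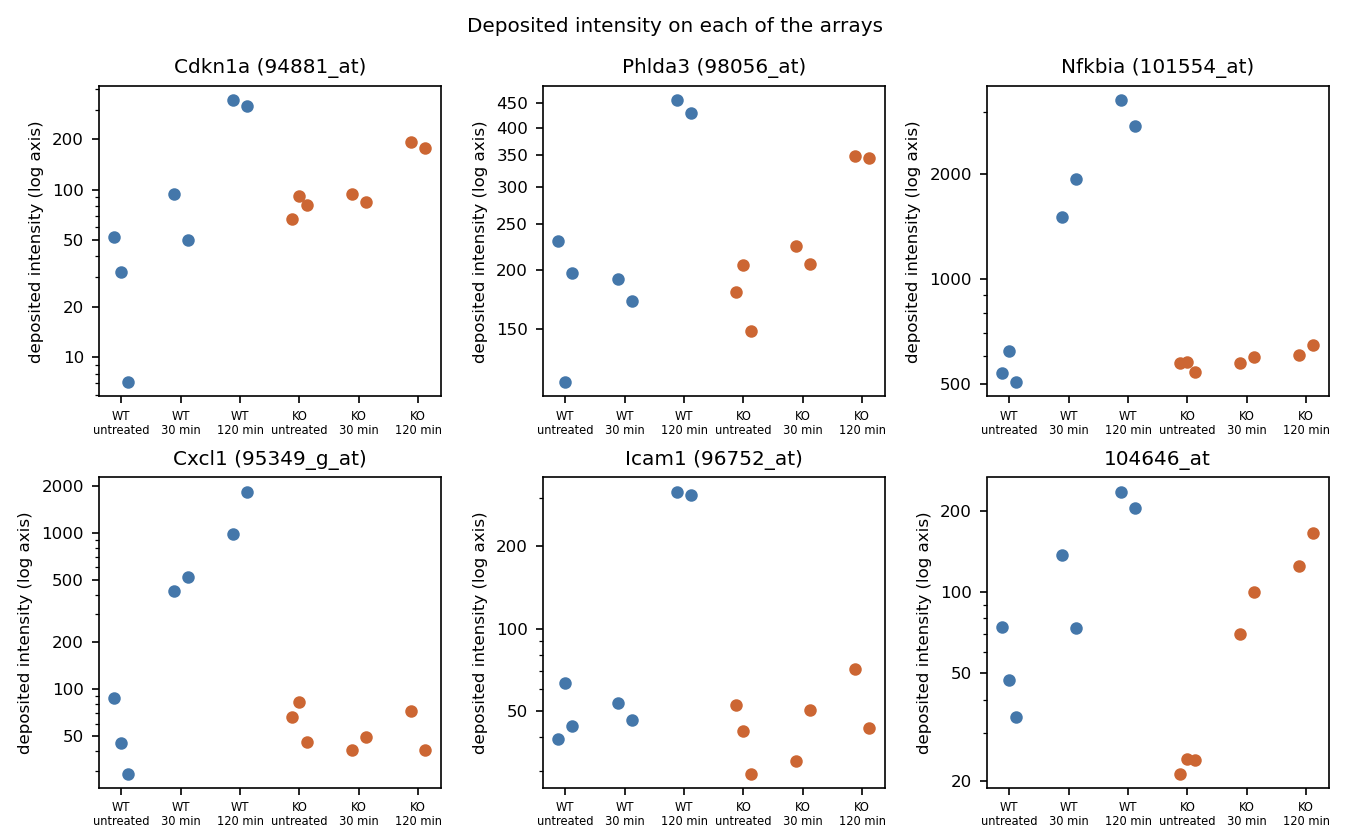
Deposited intensity (log axis) of 6 probe sets on each of the 14 arrays, by genotype and time, with 1 point per array, blue for WT and orange for KO. Nfkbia, Cxcl1 and Icam1 stay near the untreated level on the KO arrays, while Cdkn1a, Phlda3 and 104646_at lie above it at 120 min in both genotypes.

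The leukocyte adhesion molecule Icam1 stood at 52.5, 42.1 and 29.4 in untreated KO and 71.0 and 43.2 at 120 min, against 317.5 and 308.8 in WT at 120 min. The KO groups overlapped (0.30 ± 0.22, 95% interval -0.18 to 0.77), and the difference of responses was -1.81 ± 0.31 (adjusted p = 0.0493). The lipopolysaccharide co-receptor Cd14 stood at 295.7, 302.2 and 359.2 and then at 305.1 and 286.8 in KO (-0.08 ± 0.24), against 1208.9 and 1232.2 in WT, with a difference of -2.18 (adjusted p = 0.0265). The membrane-bound chemokine Cx3cl1 gave a difference of -1.65 (adjusted p = 0.0242) by 1 probe set, with KO values of 246.6, 205.6 and 204.1 before and 200.3 and 179.9 after IR. Its second probe set was at 0.66 in KO and 0.24 in WT, with no called difference (adjusted p = 0.907), so the Cx3cl1 probe sets disagree. The remaining called differences were those of D17H6S56E-5 (-2.16, adjusted p = 0.0165) and of 160651_at, which has no single gene name here (-2.56, adjusted p = 0.0493).

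The phosphatase gene Dusp1, which switches off MAP kinases, and the transcription factor gene Cebpd had called differences with KO values below the untreated level. Dusp1 stood at 251.9, 207.7 and 231.3 without treatment and at 154.2 and 148.8 at 120 min in KO, and at 504.6 and 575.3 in WT at 120 min. Both KO arrays at 120 min were lower than every untreated one, with a KO change of -0.51 ± 0.19 (adjusted p = 0.646) and a difference of -1.64 (adjusted p = 0.034). Cebpd stood at 421.0, 401.9 and 377.6 and then at 289.3 and 271.8 in KO (-0.46 ± 0.17, adjusted p = 0.629), with a difference of -1.52 (adjusted p = 0.0265). At 30 min in KO, Dusp1 was at 351.8 and 248.7 and Cebpd at 363.6 and 429.8, so the low values were seen at 120 min; the comparisons at both times share the untreated arrays.

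The count of 12 differences rests on the single arrays. It became 6 without WT untreated A or WT untreated C, 5 without WT 120 min B, 4 without KO untreated A or either KO array at 120 min, and 3 without WT 120 min A or KO untreated C. It was 2 with the muscle level as a covariate and 0 with the B cell level as a covariate. Both levels moved with the contrast at 120 min. The B cell median was -0.52 in WT and 0.05 in KO. Those of muscle were 0.33 and 0.22 in WT and -1.01 and -0.63 in KO. Such a covariate takes up part of the contrast and widens its error, so these counts cannot tell what the differences depend on. Nfkbia by 101554_at and Cxcl1 by 95348_at lost their call in 1 of 27 alternatives each, while Icam1 lost it in 21 of 27. Over these alternatives the difference of responses ran from -2.57 to -2.20 for Nfkbia by 101554_at, from -4.29 to -3.19 for Cxcl1 by 95348_at, from -2.67 to -1.94 for Cd14 and from -1.68 to -1.36 for Cebpd.

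Other genes among the largest WT rises gave KO values around 0 with no called difference. The NF-kB subunit gene Relb was at 0.26 ± 0.28 in KO against 2.14 in WT, the IkB-family coactivator gene Bcl3 at 0.24 ± 0.27 against 2.14, Tnfaip2 at 0.03 ± 0.29 against 2.12, and the apoptosis inhibitor gene Birc3 at -0.13 ± 0.27 against 1.99. Their differences of response ran from -2.12 for Birc3 (adjusted p = 0.0636) to -1.88 for Relb (adjusted p = 0.146). A further 4 genes that rose in WT had both KO arrays at 120 min above the untreated ones with small changes. These were the stress-induced gene Ier3 (0.38 ± 0.18), the interferon regulatory factor gene Irf1 (0.34 ± 0.19), the autophagy receptor gene Sqstm1 (0.32 ± 0.17) and Tagln2, an actin-binding protein gene (0.24 ± 0.16).

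Of 32 tested NF-kB targets 0 passed in KO, with a median of 0.25 (24 above 0, 8 below), beside -0.003 over all probe sets. The same genes had a median of 0.71 in WT, where 14 rose, against 0.47% of all probe sets. The KO median was 0.11 without KO 120 min A. At an unadjusted p under 0.05 there were 3 higher and 0 lower. These 3 are not among the WT calls. The costimulatory receptor gene Cd40 stood at 8.2, 13.3 and 21.1 and then at 46.5 and 61.1 (0.90 ± 0.28, adjusted p = 0.601; 0.20 in WT). The peptide transporter gene Tap1 stood at 254.7, 239.7 and 218.1 and then at 394.9 and 398.9 (0.69 ± 0.23, adjusted p = 0.606; -0.12 in WT). The vascular adhesion molecule gene Vcam1 was at 0.59 ± 0.20 (adjusted p = 0.606). In all 3 both KO arrays at 120 min lay above the untreated ones. The untreated KO values of Cd40 were below their arrays' 40th percentile (38.3 to 55.28).

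Among p53 targets, Phlda3 and Mdm2 had KO changes near those of WT, while that of Cdkn1a was smaller. The cyclin-dependent kinase inhibitor gene Cdkn1a, which encodes p21, stood at 67.2, 91.5 and 81.7 on the untreated KO arrays, at 95 and 84.3 at 30 min, and at 194.1 and 177.5 at 120 min. Both arrays at 120 min exceeded all others of the genotype, yet the change of 0.99 ± 0.26 (95% interval 0.42 to 1.55) did not pass (adjusted p = 0.487). In WT the rise was 2.59, from 52.0, 32.3 and 7.1 to 342.9 and 318.1. The difference of responses, -1.61 ± 0.37, was not called (adjusted p = 0.218), with a 95% interval of -2.41 to -0.81. The second Cdkn1a probe set stood at 48.0, 49.0 and 41.5 and then at 119.3 on KO 120 min A and 46.6 on KO 120 min B, so it overlapped the untreated level (0.51 ± 0.28).

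Phlda3, a p53-induced inhibitor of Akt, stood at 179.7, 205.1 and 148.7 without treatment in KO, at 225.1 and 205.3 at 30 min and at 348.6 and 344.4 at 120 min. The 120 min arrays were the highest of the genotype (0.87 ± 0.23, adjusted p = 0.487), and WT at 120 min reached 457.4 and 428.7 (1.18). The difference of responses was -0.30 ± 0.32, with a 95% interval of -1.002 to 0.39 (adjusted p = 0.923). Mdm2, the ubiquitin ligase gene that limits p53, stood at 187.0, 113.8 and 107.3 and then at 227.6 and 344.1 in KO (0.94 ± 0.34, adjusted p = 0.646), against 1.07 in WT. Its difference of -0.13 had a 95% interval of -1.18 to 0.93.

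Of 20 tested p53 targets 0 passed in KO, with a median of 0.13, 14 above 0 and 6 below, against -0.003 over all probe sets and 0.43 for these genes in WT. An unadjusted p under 0.05 was reached by 4 upward (Cdkn1a, Mdm2, Phlda3 and Tap1, which is in 3 of the lists) and 0 downward. Both KO arrays at 120 min lay above all untreated ones for 7 and below for 1, against 13.2% and 13.8% of all probe sets. The median was 0.24 with the muscle covariate, 0.29 without KO untreated A and C, and 0.02 without KO untreated B. Over the alternatives Cdkn1a ranged from 0.81 to 1.26 and Phlda3 from 0.67 to 0.99, with adjusted p from 0.365 and 0.386 upward.

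One probe set, 104646_at, had the smallest p in KO and has no single gene name in the annotation used here. It stood at 21.2, 24 and 23.8 in untreated KO, at 70 and 100.1 at 30 min and at 125.3 and 165.8 at 120 min. In WT it stood at 74.4, 47.2 and 34.6 without treatment and at 236.6 and 205.3 at 120 min. All 4 irradiated KO arrays were above the untreated ones. The KO change was 1.72 ± 0.24 (adjusted p = 0.0927), and the WT rise was 1.61. Their difference, 0.11 ± 0.34, had a 95% interval of -0.64 to 0.86. The KO value ranged from 1.29 to 2.18 over the alternatives, with adjusted p from 0.0321 to 0.637, and it passed with the B cell covariate. The AP-1 subunit gene Junb, by the probe set that rose in WT, stood at 50.7, 11 and 65.5 and then at 141.0 and 115.8 in KO (1.21 ± 0.38, adjusted p = 0.601; 1.98 in WT), but its second probe set overlapped at -0.24 ± 0.27.

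The 20 probe sets with the smallest p in KO had adjusted p from 0.0927 to 0.487, so none passed. They were chosen for their KO values, which are given as a description. The background potassium channel gene Kcnk1 stood at 744.1, 870.5 and 841.7 without treatment, at 417.2 and 383.0 at 30 min and at 330.9 and 401.3 at 120 min. All irradiated KO arrays were below the untreated ones (-1.11 ± 0.21 at 120 min), and WT at 120 min was at -0.50. The mitochondrial carrier gene Slc25a51 was at -0.81 ± 0.18 in KO and 0.64 in WT, and its second probe set was at -0.02 in KO. The chaperone gene Hspa4l stood at 92.1, 96.4 and 90.0 and then at 19.8 and 43.5 (-1.001 ± 0.23; 0.20 in WT). Mgst3, a microsomal glutathione transferase gene, was at -0.63 ± 0.15, and the sperm surface protein gene Adam3 was at -0.94 ± 0.22.

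Kininogen, Kng1, stood at 38.2, 85.1 and 80 in untreated KO and at 206 and 176.9 at 120 min (1.22 ± 0.23), against -0.44 in WT. Pcgf2, a Polycomb protein gene, stood at 58.8, 82.9 and 66.4, at 274.0 and 151.1 at 30 min, and at 268.7 and 183.1 at 120 min (1.37 ± 0.31; 1.28 in WT), but its second probe set overlapped at 0.56 ± 0.40. Atf5, a stress-response transcription factor gene, stood at 280.5, 277.3 and 285.5 and then at 542.5 and 482.9 (0.81 ± 0.19; 0.40 in WT). In these 3 the KO arrays at 120 min lay above the untreated ones. The leukocyte phosphoinositide kinase gene Pik3cd was at 1.23 ± 0.29, with its second probe set at 0.47 ± 0.41. The translation-factor kinase gene Mknk1 was at 0.97 ± 0.24 at 120 min and 1.003 at 30 min. The skeletal muscle calpain gene Capn3 was at 1.04 ± 0.22, with its second probe set at 0.51 ± 0.25. The phosphatase gene Ptp4a3 was at 0.81 ± 0.19, the RNA helicase gene Ddx52 at 0.70 ± 0.16 and the replication-origin factor gene Lrwd1 at 0.66 ± 0.16. The probe sets of Defa35 (0.91) and Mcpt1 (1.38) are of the kind that reads several members of a gene family, so the gene is uncertain. The lipid kinase gene Pip4k2c was at -1.43 ± 0.31 by 1 probe set and 0.27 ± 0.19 by another, and 100566_at, with no single gene name here, was at -0.65.

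**Figure D3:**
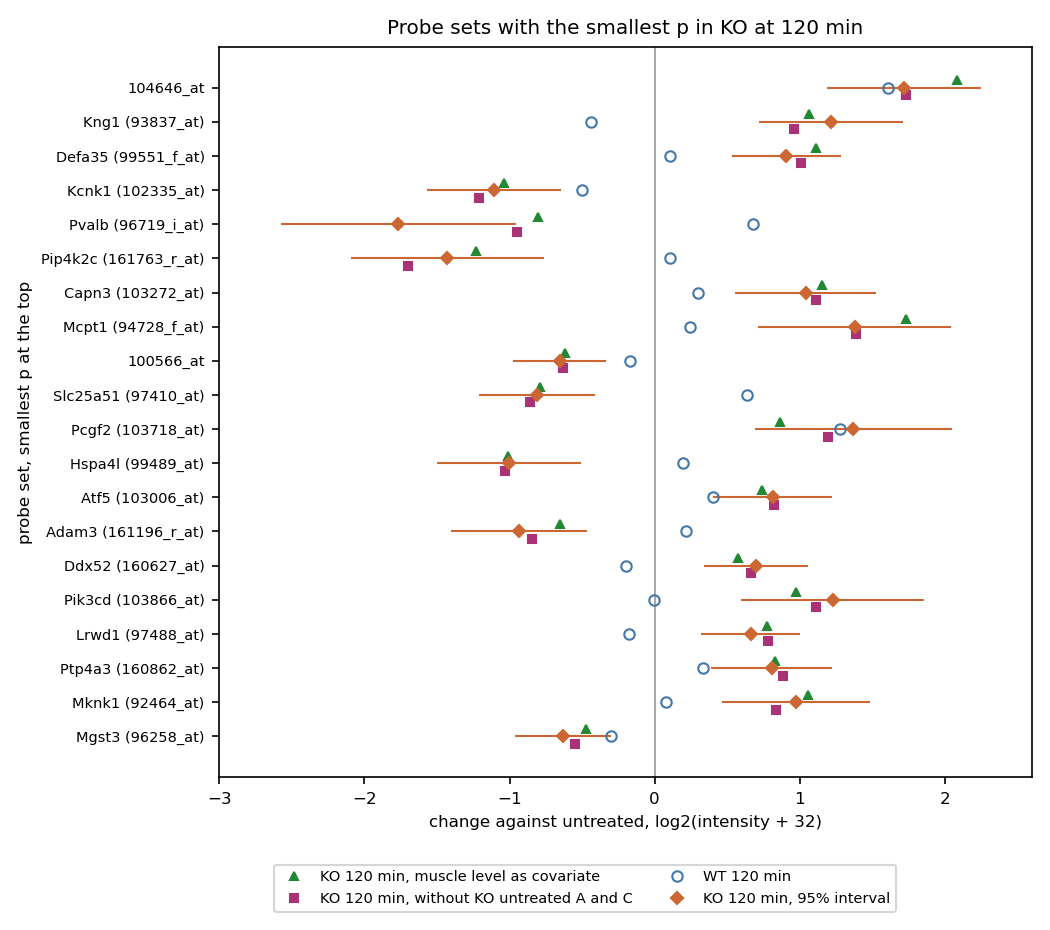
Change at 120 min on the log2(intensity + 32) scale for the 20 probe sets with the smallest p in KO; orange diamonds show KO with 95% intervals, green triangles KO with the muscle level as a covariate, purple squares KO without untreated arrays A and C, and open blue circles WT. All 20, chosen for their KO values on these arrays, keep their sign in KO under both alternatives, and Pvalb moves most toward 0.

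Skeletal muscle transcripts differed in level between the arrays compared, and beyond the alternatives given here their part in the other values was not tested. The KO untreated arrays A and C stood apart from the other 12 in these genes. KO untreated C also differed in sex-linked transcripts: Xist, transcribed from the inactive X, stood at 143.3 there, against 12.2 and 52.6 on untreated A and B and 28.8 and 22.2 at 120 min. The Y-linked gene Uty stood at 4.2 there, against 54.1 and 47.7 on A and B and 30.2 and 41.1 at 120 min. The Y-linked gene Eif2s3y, by a family-reading probe set, was at 72.1 there and at 83.1 to 145 on the other 4 arrays. The part of this array's sex-linked values in the other results was not tested beyond leaving it out. The 19 tested contractile genes of 28 on the array had a summed intensity of 8279, 3503 and 10244 on the untreated KO arrays A, B and C, and of 1583 and 3618 at 120 min. On the 7 WT arrays and the 2 KO arrays at 30 min the sum was 1693 to 4029. KO untreated B and KO 120 min B lay within the WT range, KO untreated A and C above it and KO 120 min A below it. The 25 tested genes of muscle calcium handling and metabolism summed to 8728, 4336 and 9835 and then to 2813 and 4762.

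**Figure D4:**
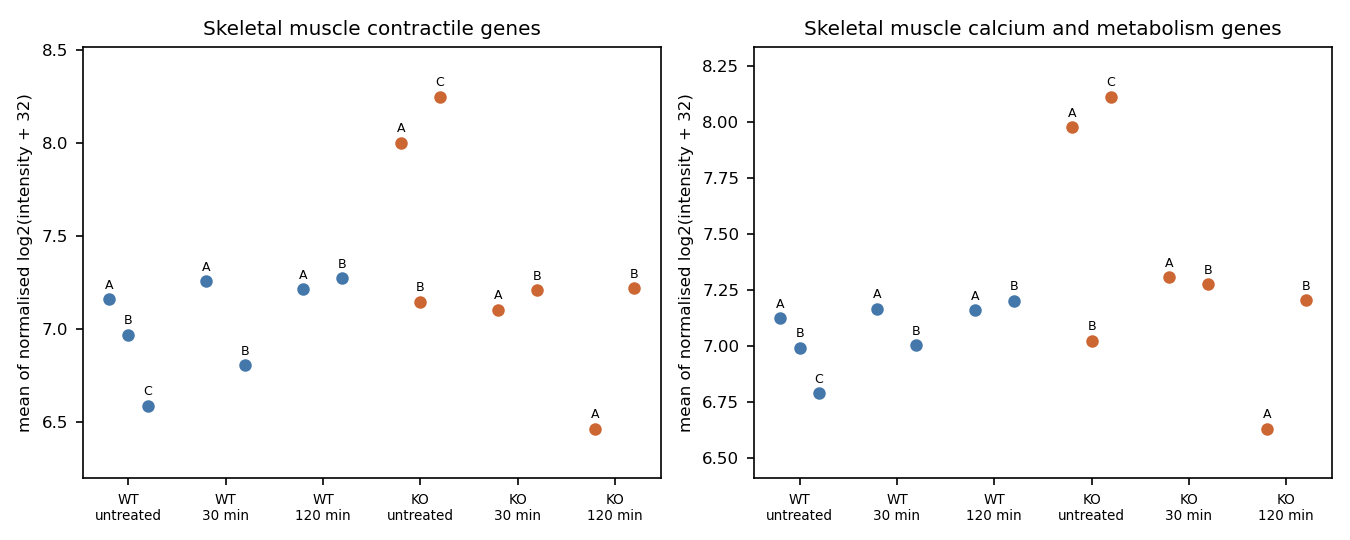
Mean normalised log2(intensity + 32) of the 19 contractile and the 25 calcium and metabolism genes of skeletal muscle on each of the 14 arrays, with 1 lettered point per array, blue for WT and orange for KO. KO untreated A and C are highest and KO 120 min A lowest in both panels.

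Skeletal alpha-actin, Acta1, stood at 2965.0, 1253.3 and 3968.7 and then at 176.3 and 1169.6 in KO (-2.42 ± 0.71, adjusted p = 0.590). The myosin heavy chain gene Myh1 stood at 320.0, 33.6 and 430.9 and then at 2.0 and 46.6 (-2.06 ± 0.65, adjusted p = 0.605). The calcium pump gene Atp2a1 stood at 1386.3, 431.5 and 1589.7 and then at 76.2 and 505.6 (-2.12 ± 0.73, adjusted p = 0.606). Untreated B lay near KO 120 min B in all 3. The calcium buffer gene Pvalb, the one member of the muscle lists among the 20 smallest p, stood at 1577.1, 707.4 and 1756.9 and then at 237.6 and 523.7 (-1.77 ± 0.37, adjusted p = 0.487), and moved to -0.81 with the muscle covariate and to -0.95 without KO untreated A and C.

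By count, 0 of 19 contractile genes passed, 16 lay below 0 and the median was -1.01, against 0.33 in WT. Of the 25 calcium and metabolism genes 0 passed, all 25 lay below 0 and the median was -0.63, against 0.22 in WT. An unadjusted p under 0.05 was reached downward by 11 and 9 genes and upward by 0, against 3.64% and 3.58% of all probe sets. The 51 muscle probe sets, of 8938 tested, gave 22 of the 325 lower ones (6.77%). They gave 14 of the 100 lower ones with the smallest p, but 0 of the 100 higher ones. Capn3, the skeletal muscle calpain gene given above, lay above 0 in KO and is not in these lists. Without KO untreated A and C, an alternative chosen after seeing the data, the medians were -0.34 and -0.06, and 28 of 44 muscle genes lay below 0 in place of 41. With the muscle covariate, which is built from these genes, they were -0.01 and 0.02, and the count at an unadjusted p under 0.05 was 447 (239 higher, 208 lower).

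With the muscle covariate Cdkn1a was at 1.22, Phlda3 at 0.72, Nfkbia at 0.10 and Icam1 at 0.14 in KO. All 20 probe sets with the smallest p kept their sign and an unadjusted p under 0.05 by limma with that covariate. All 20 also kept their sign without KO untreated A and C. They were chosen for their KO values on these same arrays, which favours both outcomes, so neither is a separate check. Of 10 smooth muscle genes 0 passed, 7 lay below 0 and the median was -0.30, or -0.14 without KO untreated A and C.

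The marker lists of B cells, T cells, macrophages and neutrophils had medians above 0 in KO at 120 min, and none held a called gene. The 20 B cell markers had a median of 0.05 in KO, 12 above 0 and 8 below, against -0.52 in WT, and -0.09 with the muscle covariate and -0.01 without KO untreated A and C. The lowest was Cd22 at -0.44 ± 0.23. The B cell receptor component Cd79b stood at 195.5, 280.4 and 295.7 and then at 520.7 and 330.7 (0.68 ± 0.27; -1.12 in WT), and Ms4a1, which encodes CD20, was at 0.60 ± 0.27 (-0.75 in WT). The 19 T cell markers had a median of 0.13 against -0.37 in WT, with 14 above 0 and 5 below. Cd7 was the lowest at -0.21 ± 0.23. Upward, 4 reached an unadjusted p under 0.05 by limma. Among them were the T cell receptor components Cd3e (0.84 ± 0.36, against -0.94 in WT) and Cd3d (0.47 ± 0.17). The T cell median was -0.01 without KO untreated A. The 20 macrophage markers had a median of 0.18, with 14 above 0 and 6 below. Their values ran from -0.27 up to that of the adaptor gene Tyrobp (0.69 ± 0.20). The macrophage median was -0.02 without KO 120 min A and with the muscle covariate alike. The 11 neutrophil and myeloid markers had a median of 0.37, with Ngp, a neutrophil granule protein gene, at 0.59 ± 0.20 and S100a8 at 1.05 ± 0.41, the last resting on KO 120 min A (363.1, against 80.1 on B). Of the 11, 9 lay above 0 and 2 below. The lowest was the granule iron-binding protein gene Ltf, which stood at 358.2, 34.1 and 44.5 and then at 43.5 and 13.7 with the groups overlapping (-1.09 ± 0.61). None of these genes had a called difference between the genotypes apart from Cd14, and the lists' differences were not tested.

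Immediate-early genes, 38 tested and 0 passed, had a median of -0.03 in KO against 0.16 in WT. An unadjusted p under 0.05 was reached by 1 upward, the kinase gene Pim1 (0.42 ± 0.16), and by 5 downward. The AP-1 subunit gene Fosl2 stood at 81.0, 85.3 and 69.7 and then at 13.5 and 26.2 (-1.09 ± 0.26, adjusted p = 0.487; -0.05 in WT). The Egf receptor inhibitor gene Errfi1 stood at 486.8, 430.3 and 457.8 and then at 269.5 and 320.5 (-0.59 ± 0.19). In both, the KO arrays at 120 min lay below all untreated ones. Both KO arrays at 120 min lay below the untreated ones for 10 of the 38 and above for 6, against 13.8% and 13.2% of all probe sets.

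Interferon-stimulated genes, 33 tested and 0 passed, had a median of 0.08 against -0.21 in WT, and -0.06 without KO untreated A and C. Of these, 5 reached an unadjusted p under 0.05 upward, among them the ubiquitin-like protease gene Usp18 (0.70 ± 0.32), the transcription factor gene Irf7 (0.57 ± 0.23) and the immunoproteasome subunit gene Psmb9 (0.47 ± 0.16; -0.68 in WT). The 31 DNA damage sensing and repair genes had a median of 0.03, with 3 upward and 2 downward. The DNA-dependent protein kinase gene Prkdc, a relative of Atm, stood at 12.2, 10.2 and 24.6 and then at 58.7 and 56.4 (0.93 ± 0.31, adjusted p = 0.606; -0.19 in WT). The ubiquitin ligase gene Rnf8, which acts at breaks, was at 0.63 ± 0.18, the break-end sensor gene Rad50 at 0.57 ± 0.17, and Fancc of the Fanconi anaemia pathway at -0.88 ± 0.23. The KO arrays at 120 min lay outside the untreated KO range in all 4. Prkdc was dim, with untreated KO values below their arrays' 40th percentile (38.3 to 55.28). For Prkdc, untreated WT stood at 69.1, 31.7 and 54.7, and KO at 30 min at 67.6 and 9.5.

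Chaperone and unfolded protein response genes gave values in both directions. Of 31 heat shock genes 0 passed, the median was -0.06, and 3 were lower at an unadjusted p under 0.05, Hspb2 (-1.13 ± 0.33), Hspa4l and the inducible Hsp70 gene Hspa1b (-0.55 ± 0.21; 0.55 in WT). Of 26 unfolded protein response genes 0 passed and the median was -0.13. The co-chaperone gene Dnajc3 stood at 572.6, 560.3 and 551.8 and then at 282.5 and 297.7 (-0.88 ± 0.27, adjusted p = 0.601), while the stress factor genes Ddit3 (0.75 ± 0.29; 0.86 in WT) and Trib3 (0.65 ± 0.27; 0.49 in WT) were above 0. The Ddit3 value was 0.28 with the muscle covariate and 0.13 without KO untreated A and C, untreated C being the lowest array at 46.5. The secreted stress factor gene Manf (-0.58 ± 0.25) and the lectin chaperone gene Canx (-0.38 ± 0.17) also had an unadjusted p under 0.05 downward. Of 62 oxidative phosphorylation genes 0 passed, 44 lay below 0 and the median was -0.15, next to -0.16 in WT. The cytochrome oxidase subunit gene Cox7b was at -0.53 ± 0.17 and 6 genes were lower at an unadjusted p under 0.05. The median was -0.04 without KO 120 min A.

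Salivary gland and ribosomal protein genes depended on the scaling. The 13 salivary genes summed to 78882, 103236 and 98139 on the untreated KO arrays and to 121787 and 125125 at 120 min. Both arrays at 120 min were above the untreated ones for 11 of 13, against 13.2% of all probe sets. The salivary median was 0.003 after quantile normalisation but 0.43 without normalisation and 0.44 with arrays centred on their median. The 26 ribosomal protein genes had medians of 0.08, 0.30 and 0.31 under the same 3 scalings. The median over all probe sets lay between -0.004 and 0.01 under these scalings.

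The other lists also held 0 called genes. Their medians in KO were 0.25 for NK and cytotoxic cells (6 tested), 0.14 for dendritic cells (10), 0.13 for exocrine pancreas (8), 0.07 for circadian clock genes (19), 0.04 for G1/S and replication genes (43) and 0.02 for apoptosis regulators (30). They were -0.001 for glucocorticoid-responsive genes (32), -0.05 for immature thymocytes (7), -0.06 for plasma cells (8) and for mitosis genes (32), -0.10 for stroma and endothelium (26) and adipocytes (17), and -0.13 for glycolysis (19). Peripheral nerve (8), surface epithelium (20) and erythroid cells (9) were at -0.15, -0.17 and -0.19. The lactate dehydrogenase gene Ldhb stood at 175.0, 165.1 and 170.1 and then at 87.5 and 87.8 in KO (-0.76 ± 0.20, adjusted p = 0.487; -0.26 in WT). The homing ligand gene Madcam1 of node venules stood at 28.1, 16.1 and 29.6 and then at 61.4 and 58.6 (0.73 ± 0.24, adjusted p = 0.606; -0.10 in WT). The KO arrays at 120 min of both genes lay outside the untreated KO range. Ldhb was the lowest of the glycolysis list, in which 8 genes lay above 0, up to 0.86, and 11 below. The untreated KO values of Madcam1 were below their arrays' 40th percentile, and untreated WT stood at 34, 71 and 27.9. Madcam1 had the largest rise of the stroma and endothelium list, in which 10 genes lay above 0 and 16 below. In that list Mgp was at -0.74 ± 0.35, Col3a1 at -0.54 ± 0.22 and Glycam1 at -0.45 ± 0.31.

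**Figure D5:**
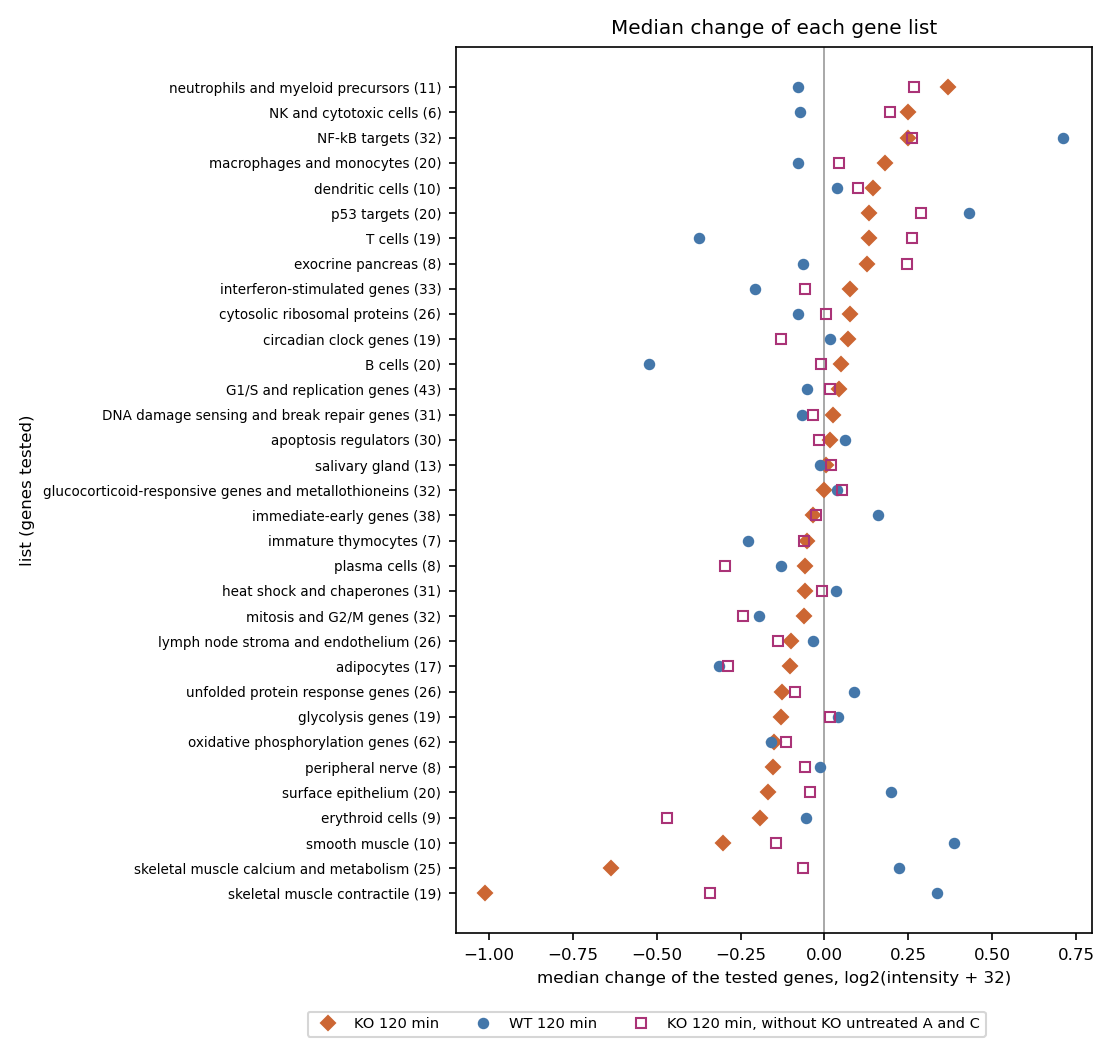
Median change at 120 min on the log2(intensity + 32) scale for each of 33 gene lists, with the number of genes tested in brackets; orange diamonds are KO, blue circles WT and open purple squares KO without untreated arrays A and C. The muscle lists lie lowest in KO at -1.01 and -0.63, and the NF-kB and p53 lists lie highest in WT.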

How the data were processed

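The study hybridised mouse lymph node RNA to 14 Affymetrix arrays of 1 colour. The authors deposited linear intensities, 1 for each probe set of an array, made with software not given in the sources used here. Their mean without the highest and lowest 2% of values was 150.1 on every array, so the deposited values had been scaled to 1 target. Here log2(intensity + 32) was quantile normalised over 12488 probe sets, 66 controls were dropped, and probe sets above their array's 40th percentile (38.3 to 55.28) on at least 2 arrays were kept. A model of 6 group means over all 14 arrays was fitted with limma 3.58.1 in R 4.3.3 (lmFit, eBayes, 8 residual and 4.56 prior degrees of freedom), with Benjamini-Hochberg adjustment, and tested on simulated data. The difference of responses is the KO change minus the WT change. Counts of arrays above or below all untreated ones use the deposited intensities.

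Gene names come from the platform annotation. Of the tested probe sets 7960 had 1 gene, 303 several and 675 none, and only those with 1 gene were named, for 6541 genes. A gene in a list is its tested probe set with the highest mean. The 34 lists cover pathways and cell types, and the sex-linked list of 3 tested genes had a median of 0.11. The members and lists were chosen with earlier results of these data known. Named were Atm, the 20 probe sets with the smallest p (fewer than 10 were called), list members by size of change, genes that rose in WT with both KO arrays above all untreated ones, and the 10 largest WT rises. S100a8, Slpi, Igkv1-133 and C1qtnf1 were named after their values were seen. Whether the replicate letters pair the samples could not be decided. The correlation of deviations was -0.067 for letter A and -0.121 for letter B. The deviations of KO arrays A and B at 120 min from their mean mirror each other. KO untreated A against KO 120 min B therefore gave 0.067, and KO untreated B against KO 120 min A gave 0.121. Alternatives covered scaling, offset, filter, fewer arrays, the letter as a block, covariates for muscle, B cell and salivary levels, an intensity trend and each array left out.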

Additional observations from a re-analysis of the deposited data

Results flagged for a closer look

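The response at 120 min differed between the genotypes by the interaction contrast of limma for 12 probe sets, each with a smaller value in KO. On the log2 scale, the KO minus WT difference was -2.27 (Nfkbia, 101554_at), -1.93 (Nfkbia, 104149_at), -4.17 (Cxcl1, 95349_g_at), -3.57 (Cxcl1, 95348_at) and -2.04 (Tnfaip3). It was -1.81 for Icam1, -2.18 for Cd14, -1.65 for Cx3cl1 and -2.16 for D17H6S56E-5. For Dusp1 it was -1.64, for Cebpd -1.52 and for 160651_at -2.56. Both KO arrays at 120 min lay below all untreated KO arrays for 5 of the 12, those of Dusp1, Cebpd, 160651_at, D17H6S56E-5 and Cx3cl1. They lay above all for 2 of the 12. Over all probe sets the shares were 13.8% below and 13.2% above. The choice of the 12 used these KO arrays and favours low KO values, so the counts are a description.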

How the results depend on the processing

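The count of calls in KO at 120 min, 0 in each direction, became 1 higher with the B cell covariate (104646_at), and with 1 array left out it ran from 0 to 10 higher and from 0 to 2 lower. The count of 12 smaller KO responses became 5 with the replicate block, 2 with the muscle covariate, 0 with the B cell covariate and 3 without KO untreated A and C (chosen after seeing the data), and ran from 3 to 16 with 1 array left out. The count of 0 larger KO responses became 1 without normalisation, 2 with offset 64, 1 with the filter at the 60th percentile and 1 with an intensity trend, and ran from 0 to 8 with 1 array left out. The replicate block changed no KO count. The 23 named KO changes were not called in the main fit. Of their 663 alternative values 662 kept direction and stayed uncalled, and 0 reversed. Most of the 23 were chosen for a small p on these same arrays, which favours a kept direction. Of 323 values of the 12 differences 196 kept their call, 127 lost it and 0 reversed. The differences could not be fitted on the KO arrays alone. The cause of these shifts was not tested. Leaving out an array of a pair leaves a lone array that is assumed to vary like the other groups. Only 2 arrays at 120 min limit every KO value.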
